A study of Mus musculus with 25 samples.

Results

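Cluster 11 is one of the numbered clusters in the authors' deposited cell table of myeloid cells that were sorted from injured and control mouse spinal cords. Its members were the cells with cluster code 11 and cell type code 2, the code that holds monocytes and macrophages, and they were chosen from those columns alone. They numbered 4504 of 30958 cells in all and 35.1% of the 12841 cells of code 2. The other large clusters of code 2, used below for comparison, were cluster 9 (3554 cells), cluster 12 (2043) and cluster 8 (1735).

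Single-cell RNA-seq on the 10x Genomics 3′ droplet platform was done on 25 libraries, each from the pooled tissue of 1 to 3 mice. A lesion piece of 5 mm was taken 1, 2, 3, 10 or 21 days after injury (D1, D2, D3, D10, D21), or after laminectomy alone (Ctrl). All mice carried Cx3cr1CreERT2, an inducible Cre recombinase driven from the Cx3cr1 locus, which microglia and many monocytes use. In Cx3cr1CreERT2:R26tdTomato mice, which also have a red reporter (RFP) that Cre switches on, RFP-/YFP+ cells form the libraries called infiltrating here and RFP+/YFP+ cells those called resident, and in Cx3cr1CreERT2 mice without it all YFP+ cells were taken, called mixed. Sort and strain therefore cannot be told apart between mixed and the other libraries. The labels give no age. Libraries are named by day, sort and number. D3_conflict 1 has a title that says infiltrating and a sort label of RFP+/YFP+, so its values are given apart, and it entered a comparison only as an alternative, named as such. D2_infiltrating 1 is labelled female but carries the code of the male libraries in the deposited cell table, and the label was used.

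Monocytes made in the bone marrow enter injured tissue from the blood within the first days, take up debris and red cell remains, and become macrophages. On the way they lose monocyte genes such as Ly6c2 and Plac8 and gain genes for lysosomes, lipid handling and iron storage. They also send out chemokines that call in more monocytes and neutrophils, and they answer type I interferon by switching on a set of antiviral genes through a complex of transcription factors. That complex binds DNA that holds a repeat of the letters GAAA, spaced by a pair of bases.

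Rsad2, Isg15 and Ifit1, which interferon induces, were among the genes that led cluster 11, so the promoters of the leading genes are shown first. The 250 bases before the RefSeq start (GRCm38.p6) were searched on both strands for GAAANNGAAA, or TTTCNNTTTC as it reads on the other strand, with overlapping matches allowed. Of the 20 leading genes, 16 had a promoter in the RefSeq table and 4 of these held a match, against 3.46% of the 27025 symbols in that table. Irf7, Oasl1 and Isg20, leading genes that interferon also induces, were searched and held no match. The leading genes were chosen by their level, and the match is a description of letters only. The 109 bases from 130 to 22 before the start are printed for those 4 genes, 5′ to 3′ on the strand of the gene, with matches in capitals.
Rsad2: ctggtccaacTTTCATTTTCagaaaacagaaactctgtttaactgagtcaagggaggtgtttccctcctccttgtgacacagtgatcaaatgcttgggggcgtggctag
Isg15: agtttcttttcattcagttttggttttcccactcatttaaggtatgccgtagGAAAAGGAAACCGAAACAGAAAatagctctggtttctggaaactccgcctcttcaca
Ifit1: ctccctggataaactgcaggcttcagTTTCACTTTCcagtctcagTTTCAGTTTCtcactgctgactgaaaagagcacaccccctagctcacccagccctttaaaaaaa
Phf11b: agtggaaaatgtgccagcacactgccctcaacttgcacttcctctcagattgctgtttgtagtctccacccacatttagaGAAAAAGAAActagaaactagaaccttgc
Rsad2 encodes viperin, an antiviral enzyme, and its window lies on the minus strand at chr12:26456474-26456582. Isg15 encodes a ubiquitin-like protein that is joined to others after interferon, and its window, with 3 overlapping matches in 1 run, is on the minus strand at chr4:156200840-156200948. Ifit1, which encodes a protein that binds viral RNA, had 2 separate matches on the plus strand at chr19:34640759-34640867. The Phf11b window is on the minus strand at chr14:59341352-59341460.

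The label was checked against marker genes, as CPM, the UMIs of a gene summed over the cluster 11 cells of a library and scaled to a fixed total of UMIs. Values are from the 7 infiltrating and mixed libraries with at least 20 cluster 11 cells, unless others are named. Of 9 macrophage markers all 9 reached 20 CPM over the pooled cells, with Cd68, a lysosomal membrane protein, at 1720 ± 565.8 CPM (SD, n = 7) and Fcgr1, an IgG receptor, at 685.9 ± 190.5 CPM (SD, n = 7). Of 8 classical monocyte markers all 8 reached it, with the secreted chitinase-like protein Chil3 at 2086 ± 835.4 CPM and Ly6c2, a surface antigen of blood monocytes, at 211 ± 184 CPM (SD, n = 7). Of 8 nonclassical monocyte markers 1 did. The cluster thus held genes of both monocytes and macrophages.

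Of 9 markers of border macrophages, the resident macrophages of the meninges and vessels, 3 reached 20 CPM: the platelet factor Pf4 at 1130 ± 836 CPM, the clotting factor chain F13a1 at 535.3 ± 234.5 CPM and the scavenger receptor Stab1 at 196.5 ± 41.0 CPM (SD, n = 7). The 9 summed to 819.9 to 3423 CPM, while Lyve1 and Cd209f were at 0 in all 7 libraries and Cd163 was at no more than 6.28 CPM. Markers of the other cell types checked were lower. Of 9 microglia markers 1 passed 20 CPM over the pooled cells, and the 9 summed to 275 to 672.5 CPM. The microglial surface protein Tmem119 ranged from 0 to 15.0 CPM, and the microglial factor Sall1 was at 0 in 6 of the 7 libraries. Over the pooled cells no marker of dendritic cells (8), T or NK cells (7), B cells (6), astrocytes (5) or erythroid cells (5) reached 20 CPM, and their summed levels in single libraries ran to at most 56.4, 13.9, 22.4, 65.6 and 57.2 CPM. For neutrophils 3 of 8 did and their sum ran from 93.4 to 550.5 CPM. For oligodendrocytes 1 of 6 did, with sums of 37.1 to 131 CPM, and for endothelial cells 1 of 5, with sums of 10.9 to 88.4 CPM. Of 12 cell cycle genes only Pcna, a DNA replication clamp, reached it, while Top2a, needed to separate chromosomes, was at no more than 6.28 CPM. The label of monocytes or macrophages was kept, and the division genes of the list other than Pcna were under 20 CPM over the pooled cells.

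Cluster 11 was seen almost only in the first days after injury. Of its 4504 cells, 4496 came from D1, D2 or D3 libraries, 6 from D10 and 2 from D21. The laminectomy libraries held 0 in 1887 cells, which allows a share of up to 0.159%, and they held no cell of code 2 at all. By sort, 2874 cells came from infiltrating, 488 from mixed and 97 from resident libraries, and 1045 from D3_conflict 1. The 4 libraries with the most members gave 82.0% of them.

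At D1 the share of cluster 11 among cells of code 2 was 37.1% in D1_infiltrating 1 (exact 95% binomial interval 34.5 to 39.8%) and 66.6% in D1_infiltrating 2. In the mixed D1 libraries, with few cells of code 2, it was 10.7% of 28 cells (2.27 to 28.2%) in D1_mixed 1, 33.3% of 12 (9.93 to 65.1%) in D1_mixed 2 and 29.6% of 54 (18.0 to 43.6%) in D1_mixed 3. D1_mixed 2, with under 20 such cells, entered no test. At D2 it was 46.3% in D2_infiltrating 1, 44.9% in D2_mixed 1 and 59.4% in D2_mixed 2. At D3 it was 56.8% in D3_infiltrating 1 but 1.59% of 3019 cells in D3_mixed 3 (1.17 to 2.10%), where 88.6% of the cells of code 2 lay in cluster 9. These intervals cover counting error only. Those of the 2 D1 infiltrating libraries did not overlap, nor did those of the 2 large D3 libraries, while the intervals of the 3 mixed D1 libraries overlapped one another.

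At D10 the shares were 0.729% of 549 cells, 0 of 116, 3.77% of 53 and 0 of 68, where the counts of 0 allow up to 2.59% and 4.41%. At D21 they were 1.12% of 89 and 1.28% of 78 cells. Every D10 library lay below every D1 library. The mean share was 36.0% ± 23.2 at D1 (SD, n = 4), 41.8% ± 23.4 at D2 and D3 together (n = 5), and 1.13% ± 1.80 at D10 (n = 4).

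The test was a 2-sided exact permutation of the library labels, adjusted by Benjamini-Hochberg over 4 comparisons. D10 minus D1 was -34.9 percentage points (exact p = 0.0286, adjusted 0.0571, where 0.0286 is the smallest p that this design allows). D10 minus D2 and D3 was -40.7 points (exact p = 0.0238, adjusted 0.0571), with D3_mixed 3 the 1 early library that overlapped D10. D2 and D3 minus D1 was 5.78 points (exact p = 0.730, adjusted 0.730), and ran from -2.66 to 16.0 points with 1 library left out. None passed an adjusted 0.05. As a share of all cells in a library, D10 minus D1 was -17.9 points (adjusted exact p = 0.0926). D10 minus D2 and D3 was then -23.1 points (adjusted exact p = 0.0926). With the resident libraries added, the share among cells of code 2 at D10 differed from D1 by -35.1 points (adjusted exact p = 0.0159). From D2 and D3 it differed by -38.1 points (adjusted exact p = 0.0124). Whether resident and infiltrating libraries came from the same mice is not known here, and the permutation takes them as independent. Infiltrating libraries were 14.4 points above mixed ones when each was set against the mean of its own day (permutation of sorts within days, p = 0.199, adjusted 0.265). The difference between sorts ran from 8.1 to 19.2 points with 1 library left out.

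No sequencing pool held a D10 library together with a D1, D2 or D3 library of the infiltrating or mixed sort, so these comparisons have no value within a pool. One pool did hold D2_resident 1, with a share of 27.6% (exact 95% binomial interval 21.3 to 34.6%), beside D10_resident 1 with 0 of 134 cells, which allows up to 2.24%, and D10_infiltrating 1 with 0.729%. Pools that held early and D21 libraries gave D21 shares of 1.12% beside 44.9%, 59.4% and 1.59% in one, and 1.28% beside 10.7% and 29.6% in another. A lower share can also arise from more cells of another cluster.

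**Figure D1:**
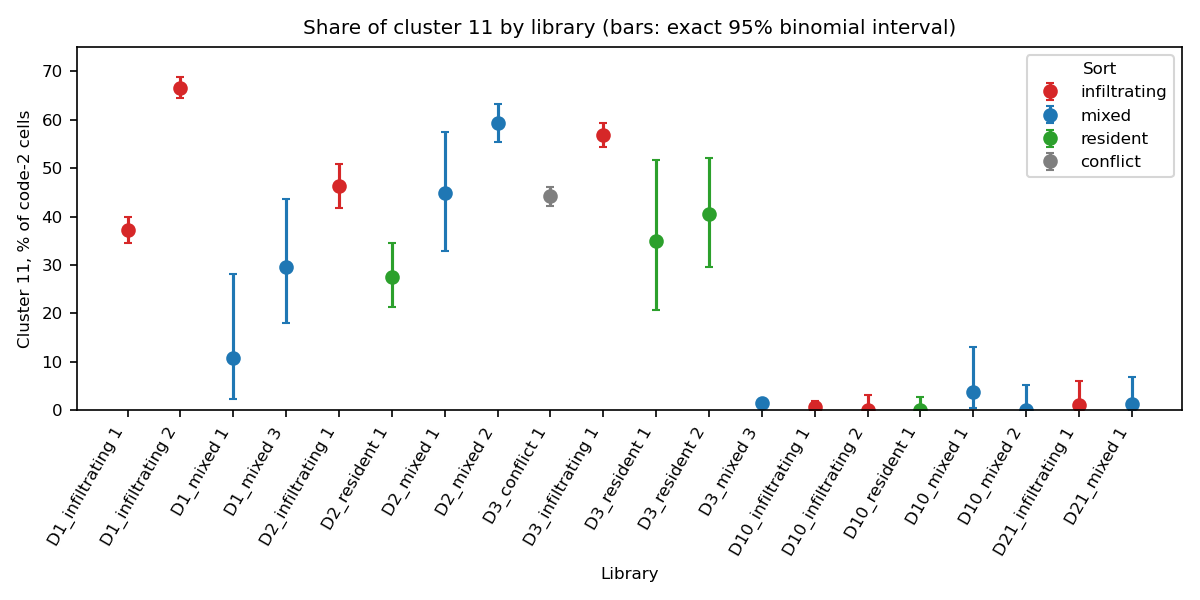
Share of cluster 11 among cells of code 2 (y axis, percent) for each library with at least 20 such cells (x axis), coloured by sort, with exact 95% binomial intervals. D1 to D3 libraries lie between 10.7% and 66.6% except D3_mixed 3 at 1.59%, and D10 and D21 libraries lie at or below 3.77%.

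Libraries sorted as resident also held members. The share of cluster 11 among cells of code 2 was 27.6% of 185 cells in D2_resident 1, 35.0% of 40 in D3_resident 1 and 40.5% of 79 in D3_resident 2, and 0 of 134 in D10_resident 1. D3_conflict 1 had 44.2% of 2367. Of all cells in the library, cluster 11 made up 2.98% in D2_resident 1 and 3.02% in D3_resident 2.

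Next, cluster 11 was set against the other cells of code 2 in the same 7 libraries, as the log2 ratio of CPM with 10 CPM added. The clusters were made from these genes, so the values describe the cluster and carry no test. Of 3110 genes at 50 CPM or more on the higher side, cluster 11 was higher in all 7 libraries for 473 (15.2%) and lower in all 7 for 368 (11.8%). The median ratio over the 3110 genes was -0.003.

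The leading genes fell into a few kinds. Of the first 20, 4 belong to the interferon response list (Rsad2, Isg15, Ifit1 and Irf7), and Oasl1 and Isg20 are antiviral genes that interferon also induces. Rsad2 came first, with a median log2 ratio of 1.87 (0.92 to 2.40 over libraries) and 542.1 CPM in the pooled cluster against 69.9 in the other cells. Irf7, a factor that amplifies interferon production, had a median ratio of 1.30. Of the 14 genes in the interferon list 12 reached 50 CPM, 8 of them were higher in all 7 libraries and none was lower in all, with a median ratio of 1.40.

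Chemokines and cytokine signalling came next. Ccl2 and Ccl7, which draw monocytes through CCR2, had median ratios of 1.49 and 1.71, and Ccl2 reached 5788 CPM in the pooled cluster. They lie side by side on chromosome 11 of GRCm38 (Ccl2 from 82035571 to 82037453, Ccl7 from 82045712 to 82047525). Il1rn, the antagonist of the interleukin-1 receptor, had a ratio of 1.78, while Il1b, which encodes interleukin-1 beta, had a ratio below 0 in 6 libraries and of 0 in the other. Il7r, an interleukin-7 receptor chain, was at 1.69. Of 9 CC chemokine ligands at 50 CPM, 3 were higher in all 7 libraries. The ratios depend on which clusters make up the other cells. Mean Il1rn from D1 to D3 was 306 CPM in cluster 11 and 241 in cluster 12, with overlapping ranges, and 68.0 in cluster 8 and 20.5 in cluster 9. Mean Il1b was 60.1 CPM in cluster 11, 84.1 in cluster 8, 3.27 in cluster 9 and 676 in cluster 12.

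Genes of clotting, matrix, lipid and heme handling were also among the first 20. F10, which encodes clotting factor X, was at 1.48, and Thbs1, an adhesive matrix protein, at 1.27. The lipid scavenger receptor Cd36 was at 1.68 and Hilpda, which blocks the breakdown of stored fat, at 1.30. Hmox1, the enzyme that breaks down heme, was at 1.12 with 3797 CPM in the pooled cluster. Of 10 genes in the heme, iron and antioxidant list at 50 CPM, 6 were higher in all 7 libraries and none was lower in all. For the lipid list it was 6 of 14, with a median ratio of 0.84. For the coagulation and matrix list it was 3 of 12, with a median ratio of 0.36, beside 15.2% of all 3110 genes.

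The genes lowest against the other cells were complement C1q chains and ribosomal proteins. C1qa was at -1.84 and C1qc at -1.24, and both encode parts of the first complement component, which resident-type macrophages make. Ribosomal protein genes filled 6 of the 10 lowest places, from Rpsa at -1.21 to Rps12 at -1.10, and of 77 cytosolic ribosomal protein genes at 50 CPM, a list made after these values were seen, 70 were lower in all 7 libraries, with a median ratio of -0.82. The rest were Eef1b2, a translation elongation factor, and Ptpn18, a phosphatase. Fabp5, the fatty acid binding protein named in the series title, was not among the leading genes. Its median ratio was 1.1, it was higher in 5 of 7 libraries, and its level was 5340 ± 1974 CPM (SD, n = 7).

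When libraries with under 50 cells on either side were left out, leaving 5, 8 of the 20 leading genes stayed in the first 20, namely Rsad2, Il1rn, Ccl7, Il7r, Cd36, Isg15, Ifit1 and Rgl1. Cxcl10, Ifit3 and Fabp4 were among those that came in. Of the 10 lowest genes only Eef1b2 stayed, and Il1b and H2-DMb1 were among those that came in, so the C1q chains and ribosomal proteins were not among the 10 lowest of the 5 deeper libraries. D2_mixed 1 and D3_mixed 3 were the 2 libraries left out, and they were also the shallow ones, with a median of 1832 and 3734 UMIs per cluster 11 cell against 8025 to 11990 in the other 5.

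**Figure D2:**
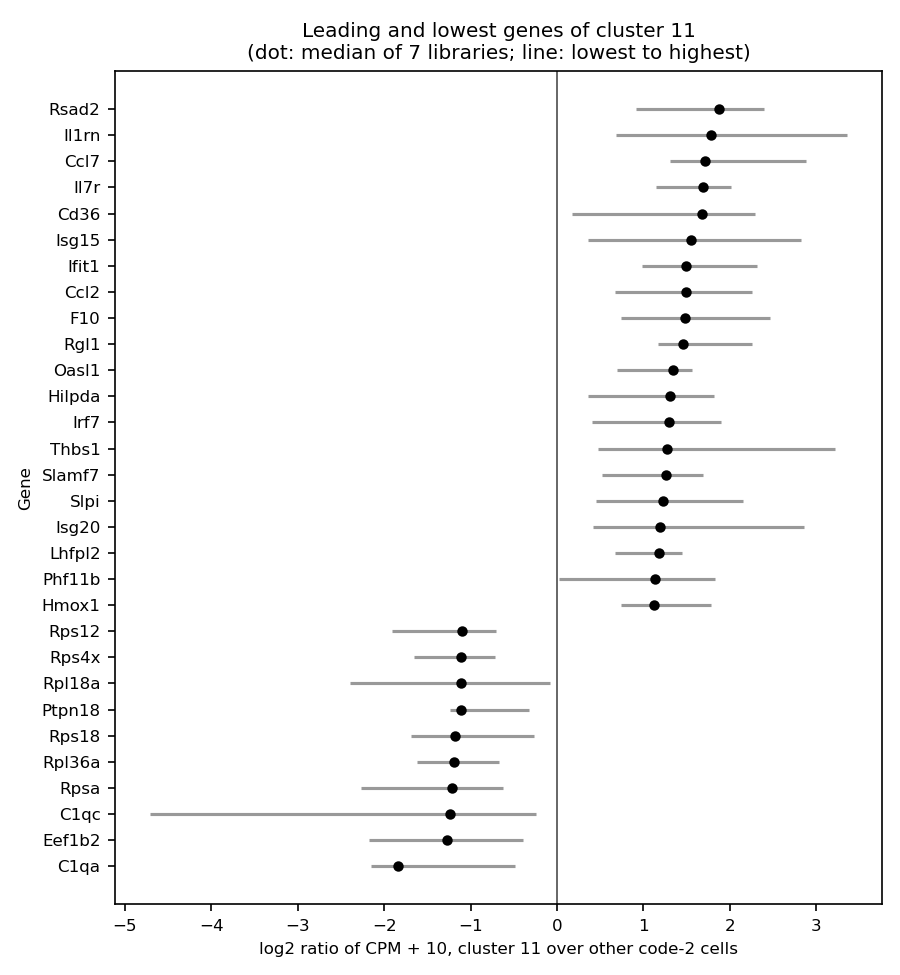
Log2 ratio of CPM with 10 added, cluster 11 over other cells of code 2 (x axis), for the 20 highest and 10 lowest genes (y axis), with dots at the median of 7 libraries and lines from lowest to highest library. Rsad2 leads at 1.87 and C1qa is lowest at -1.84.

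Across clusters, the mean level in cluster 11 lay between that of cluster 12 and those of clusters 8 and 9 for Plac8, Chil3 and C1qb. These genes were chosen after their values were seen, and the order did not hold for every marker. Ccr2, the receptor for Ccl2 and Ccl7, had its lowest mean of these 4 clusters in cluster 11, at 177.5 ± 135 CPM against 637 ± 230 in cluster 12, 368.5 ± 275 in cluster 8 and 327 ± 542 in cluster 9, and cluster 11 overlapped clusters 8 and 9 but not cluster 12. Cd68 had its highest mean of the 4 in cluster 11, overlapping the ranges of clusters 8 and 9. Plac8, a monocyte gene, was at 1709 ± 713.6 CPM in cluster 12 (SD, n = 5), 336 ± 357 in cluster 11 (n = 7), 123 ± 87.8 in cluster 8 (n = 6) and 35.6 ± 56.0 in cluster 9 (n = 3). C1qb, the other C1q chain, ran the other way, at 295 ± 229 CPM in cluster 12, 850.2 ± 647 in cluster 11, 2178 ± 1588 in cluster 8 and 4432 ± 3287 in cluster 9, and the range of cluster 11 overlapped those of the other 3. Fabp5 was at 349.5 ± 275 CPM in cluster 12, 3391 ± 2870 in cluster 8, 5340 ± 1974 in cluster 11 and 8623 ± 6811 in cluster 9. The ranges of Fabp5 overlapped among clusters 8, 9 and 11. Rsad2 was at 327 ± 358.5 CPM in cluster 11, 178 ± 128 in cluster 12, 26.4 ± 10.9 in cluster 8 and 23.8 ± 10.6 in cluster 9, and clusters 11 and 12 overlapped. Among the 20 leading genes, Thbs1 and Slpi, a protease inhibitor, had a higher mean in cluster 12 than in cluster 11, at 2269 ± 740 against 1756 ± 1235 CPM and at 810.0 ± 286 against 672 ± 203 CPM, and their ranges overlapped. These means rest on different libraries, since cluster 12 had under 20 cells in D2_mixed 1 and D3_mixed 3. Thbs1 in cluster 11 was at 1017 and 371.8 CPM there. Of the 20 leading genes, only Ccl7, Il7r, Cd36 and Rgl1 had no overlap between clusters 11 and 12. Il7r was at 494 ± 91.5 CPM in cluster 11 against 184 ± 73.8 in cluster 8 and 137 ± 57.8 in cluster 12, with every cluster 11 library above every library of clusters 8, 9 and 12. It was higher in the small cluster 14, at 1401 CPM in the 1 library with at least 20 of its cells. Slamf7 (1255 CPM), Rgl1 (467 CPM), Il1rn, Thbs1, Isg20, Lhfpl2 and Phf11b were also above their cluster 11 means there, and the other leading genes below. Cd36 had a mean of 155 CPM in cluster 13 against 141 in cluster 11, with overlapping ranges.

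**Figure D3:**
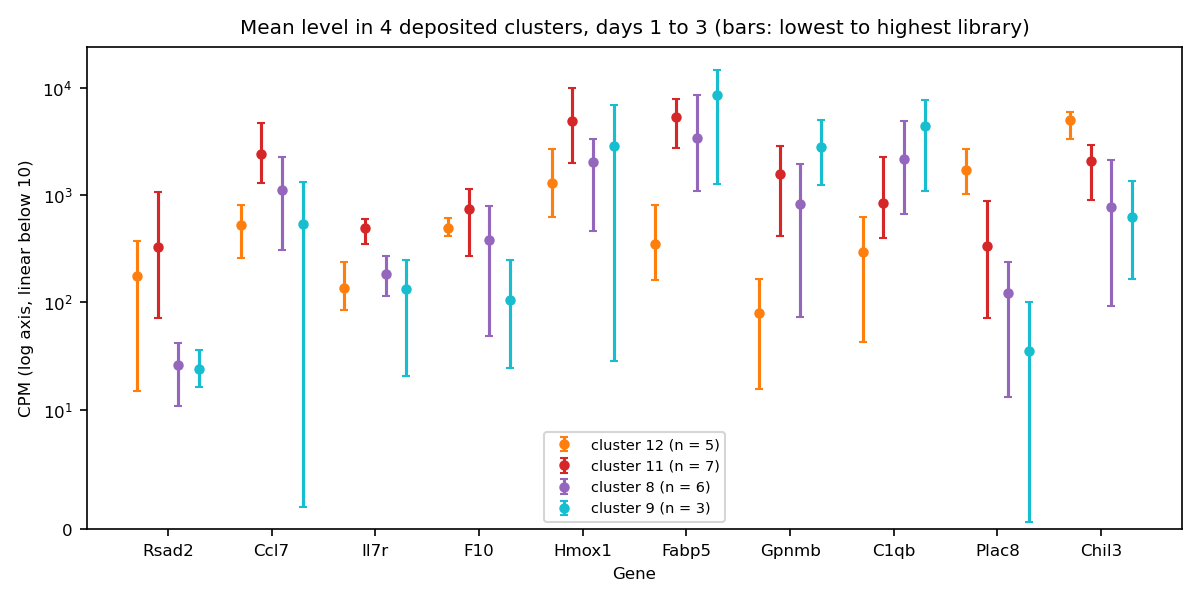
Level in CPM (y axis, log above 10) of 10 genes (x axis) in deposited clusters 12, 11, 8 and 9 from D1 to D3 infiltrating and mixed libraries, with dots at the mean and bars from lowest to highest library. Of these 4 clusters, Il7r has its highest mean in cluster 11 and Plac8 in cluster 12.

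Levels within cluster 11 differed a great deal between libraries of the same day. Cxcl3, a chemokine that draws neutrophils, was at 160 CPM in D1_infiltrating 1, 3602 in D1_infiltrating 2, 2838 in D2_infiltrating 1, 12.6 in D2_mixed 1, 52.1 in D2_mixed 2, 72.6 in D3_infiltrating 1 and 5.47 in D3_mixed 3. D1_infiltrating 2 and D2_infiltrating 1 were far above the other 5. Ccl6, another chemokine, was in the same order at 1199, 5751, 7301, 1042, 1069, 764 and 224 CPM, with the same pair of libraries highest. The summed border macrophage markers were highest in this pair too, at 3347 and 3423 CPM against 819.9 to 1895 in the other 5, and Pf4 made up 2202 and 2317 of them. Their part in the pattern was not tested.

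Interferon genes showed another pair. Isg15 was at 1558 CPM in D1_infiltrating 1, 382 in D1_infiltrating 2, 203 in D2_infiltrating 1, 320 in D2_mixed 1, 769 in D2_mixed 2, 1853 in D3_infiltrating 1 and 514 in D3_mixed 3. Rsad2 was in that order at 459, 333, 85.1, 81.6, 191, 1069 and 71.1 CPM. Ly6c2 was at 445, 86.0, 55.9, 44.0, 244 and 479 CPM in the first 6 and 126 in the last. D1_infiltrating 1 and D3_infiltrating 1 were the 2 highest for Isg15, Rsad2 and Ly6c2. The summed dendritic cell markers were also highest in this pair, at 56.4 and 45.0 CPM against at most 3.13 in the other 5. Most of the sum came from Klrd1 (32.1 and 22.1 CPM) and Cd209a (20.6 and 9.69), while Flt3, a defining marker, was at 1.49 and 6.76 CPM. Their part in the pattern was not tested.

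Over all 21 pairs of libraries and 2914 genes at 50 CPM or more, D1_infiltrating 1 and D3_infiltrating 1 were the 2 highest, each at least 2 times the next library, for 31 genes. D1_infiltrating 2 and D2_infiltrating 1 were so for 24, and no other pair for more than 1. The first set held Ifit2, Ifit3, Usp18, Ms4a4c and Plac8, and the second Thbs1, Fn1, Cxcl2, Ccl9, Hilpda, the Fc receptors Fcgr2b and Fcgr3, and the mitochondrial transcripts mt-Atp6 and mt-Nd3. The median mitochondrial share of UMIs per cell was also highest in the second pair, at 1.37% and 1.44% against 0.17% to 0.90% in the other 5, and its part in the pattern was not tested. D1_infiltrating 1, D1_infiltrating 2 and D2_infiltrating 1 shared a sequencing pool, and D3_infiltrating 1 was in another. Outside these 7 libraries, D3_conflict 1 had Cxcl3 at 25.3 and Isg15 at 1127 CPM, and the 16 cells of D1_mixed 3 had Cxcl3 at 14150 and Isg15 at 420.2 CPM.

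The pattern was also read at equal depth. With each cell thinned to 3000 UMIs, Cxcl3 was found in 42.6% of 1164 cells of D1_infiltrating 2 and 51.4% of 216 cells of D2_infiltrating 1, against 6.94% of 432 in D1_infiltrating 1, 4.46% of 359 in D2_mixed 2 and 2.80% of 856 in D3_infiltrating 1. In D3_mixed 3 it was found in 0 of 33 thinned cells, and D2_mixed 1 kept only 9 cells at that depth. Before thinning, the shares in the first 5 were 47.5%, 56.1%, 9.13%, 7.83% and 5.00%. Rsad2 was found in 18.1%, 9.26%, 38.4%, 22.3% and 43.7% of the thinned cells, and in 27.6%, 18.6%, 53.7%, 39.2% and 58.9% before thinning. In 453 thinned microglia of the 7 libraries Cxcl3 was found in 0.221% and Rsad2 in 1.55%, but of their 1104 microglia before thinning 524 came from D2_mixed 1 and 521 from D3_mixed 3. D1_infiltrating 2 and D2_infiltrating 1 held 7 and 3 microglia, so the share that free RNA gives in those libraries was not measured. Thinning left out 92, 5, 39, 24 and 65 cells of these libraries, which had under 3000 UMIs.

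**Figure D4:**
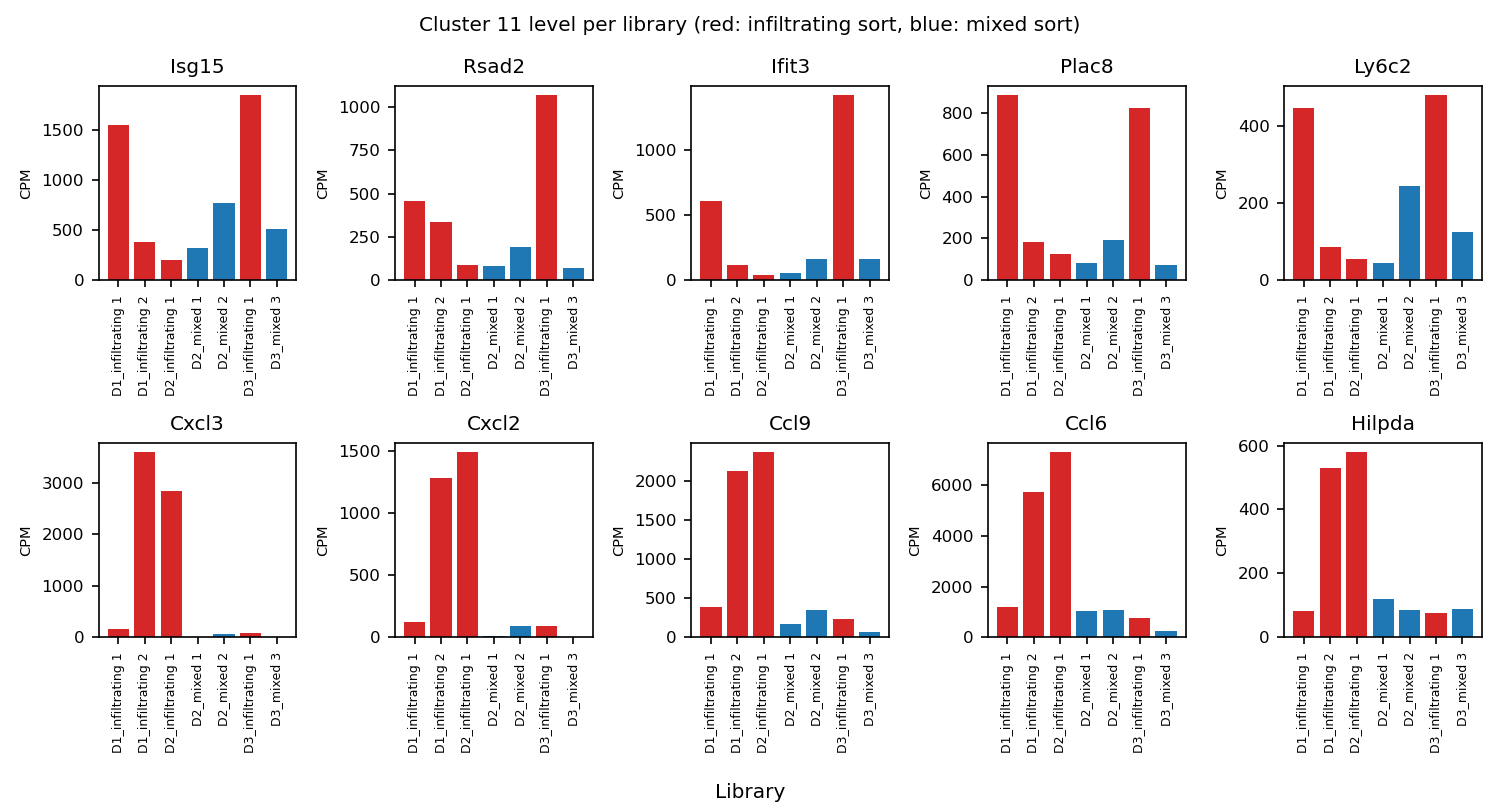
CPM (y axes, from 0) of 10 genes in cluster 11 for each of the 7 libraries (x axes), with infiltrating libraries red and mixed ones blue. Cxcl3 is at 3602 and 2838 CPM in D1_infiltrating 2 and D2_infiltrating 1 and at most 160 in the others, while Isg15 is highest in D1_infiltrating 1 and D3_infiltrating 1.

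Change with time was tested within cluster 11 for D2 and D3 (5 libraries) against D1 (2 libraries, both infiltrating). With edgeR's quasi-likelihood test and sex as a term, 0 of 9663 genes (0.0%) had an adjusted p under 0.05, while 135 had an unadjusted p under 0.05 and DESeq2 called 0. Of 19 alternatives 11 also called 0. The count was 47 with no expression filter, 61 with sequencing pool as a term and 82 without D2_infiltrating 1. The p-values measure the spread between these libraries. Both D1 libraries were above all 5 later ones for 0.59% of the genes and below all of them for 6.19%. These shares used plain CPM, without the scaling factors (TMM) of the fit. The factors were 0.856 and 0.924 at D1 and 0.918 to 1.29 later, so the shares give no direction of change. The median log2 change of the fit over all genes was 0.008. D10 could not be compared for genes, since no D10 library held 20 members.

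The gene with the smallest p was S100a9, a calcium-binding protein of neutrophils and monocytes, at -7.19 ± 0.96 on the log2 scale, D2 and D3 minus D1 (SE, edgeR's adjusted p = 0.102). DESeq2 put the change at -5.38 (adjusted p = 0.9997). S100a9 counts lay mostly in 1 library, at 80.4 CPM in D1_infiltrating 2 against 5.23 in D1_infiltrating 1 and at most 3.50 in the later 5. The size of the change thus rests on later levels near 0. The summed neutrophil markers were also highest in D1_infiltrating 2, at 550.5 CPM, and their part in the value was not tested. That sum includes S100a9 itself. Of the other markers, S100a8 and Mmp8 ran up to 344.6 and 219.8 CPM over the 7 libraries. Retnlg, Camp and Ltf were at no more than 1.55, 0.78 and 0.30 CPM. Without D1_infiltrating 1 the D1 side is D1_infiltrating 2 alone, which held 807 of the 835 S100a9 counts at D1, and the fit assumes that it varies like the other groups. The change was then -8.38 (edgeR's adjusted p = 4.2e-20). S100a9 fell by 8.42 without D2_infiltrating 1 (5.6e-08), by 6.26 without D2_mixed 2 (7e-11), by 6.17 with sort as a term (0.00017) and by 7.21 with no expression filter (5.8e-22). The change was -4.03 without D1_infiltrating 2, -3.99 with sequencing pool as a term and -3.47 with D3_conflict 1 added, and none of these 3 passed.

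Among 10 CC chemokine ligands 0 were called, 5 had an unadjusted p under 0.05, and 2 had both D1 libraries above all later ones. The list's median log2 change was -1.31, beside 0.01 over all genes. Ccl12, another CCR2 ligand, was at 125 and 290 CPM at D1 and at 99.1, 12.6, 110, 69.7 and 60.1 CPM later, with no overlap (-1.79 ± 0.44 SE on the log2 scale, adjusted p = 1 by edgeR). Microglia from D1 to D3 held Ccl12 at 1598 ± 1947 CPM (SD, n = 8), and the part of free RNA in the cluster 11 values was not tested. Ccl2 was at 4670 and 9505 CPM at D1 and at 6162, 3372, 4922, 2977 and 1706 CPM later, and these overlapped (log2 change -1.33, edgeR adjusted p = 1). Ccl7 was at 2470 and 4681 CPM at D1 and at 2218, 1633, 2971, 1291 and 1542 CPM later, and these overlapped too (log2 change -1.29, edgeR adjusted p = 1). Ccl12 fell by 1.81 on the log2 scale with no expression filter (edgeR's adjusted p = 0.00016), by 2.41 without D2_infiltrating 1 (0.0025) and by 1.72 without D2_mixed 2 (0.035). Without D1_infiltrating 1, with the D1 side again 1 library whose spread is assumed, the change was -2.01 (0.017). With sequencing pool as a term the changes were -0.57 for Ccl12, -0.59 for Ccl2 and -0.69 for Ccl7, and none passed. Without D1_infiltrating 2 the Ccl2 change was -0.79.

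No member of the other lists was called. The median log2 change was -1.10 over 8 classical monocyte genes, -2.89 over 4 neutrophil genes, -0.96 over 8 alternative activation genes, -0.88 over 13 genes of inflammatory cytokines and NF-kB feedback, -0.71 over 12 immediate early genes and -0.69 over 14 coagulation and matrix genes. It was 1.09 over 5 oligodendrocyte and 1.08 over 4 astrocyte markers, whose sums stayed at or under 131 and 65.6 CPM, and 0.26 over 9 macrophage genes. It was -0.66 over the 14 interferon genes tested, 0.16 over 16 lysosomal genes, 0.02 over 16 lipid genes and 0.13 over 14 heme, iron and antioxidant genes. Summed over whole lists, D1 and later libraries overlapped. Neutrophil markers were at 130.7 and 550.5 CPM at D1 and 93.4 to 389.4 later. Classical monocyte markers were at 5585 and 4189 CPM at D1 and 1149 to 4677 later. Alternative activation genes were at 4606 and 10010 CPM at D1 and 2247 to 10640 later. Inflammatory cytokines and NF-kB feedback were at 1250 and 6292 CPM at D1 and 437.4 to 5701 later. Fabp5 was at 4400 and 4813 CPM at D1 and at 3499, 7775, 6959, 2730 and 7206 CPM later, with the D1 values inside the later range. Hmox1 was at 4372 and 4463 CPM at D1 and ran from 1981 to 9866 CPM later.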

How the data were processed

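Myeloid cells were measured by 10x Genomics 3′ RNA-seq. Unnormalised UMI counts for every gene in every cell were deposited by the authors, with a table of each cell's cluster, cell type, pool and percent of mitochondrial counts. The submitters' processing notes name Cell Ranger 3.1.0 and the builds GRCm38 and mm10. The cell filters and the annotation used are not given in the sources used here. The median percent of mitochondrial UMIs in cluster 11, from the authors' table, was 1.05%, and it ran from 0.17% in D3_infiltrating 1 to 1.44% in D2_infiltrating 1 over the 7 libraries fitted.

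Cell sums equalled the deposited totals for all 30958 cells. Of the barcodes, 127 occurred in more than 1 library, at most 4 in any pair of libraries, and 39 cluster 11 cells carried one. No doublet caller was run and no cell was removed. Counts of cluster 11 were summed per library (159237 to 10041911 UMIs in the 7 libraries with at least 20 cells) and tested with edgeR 4.0.16 in R 4.3.3 (TMM, filterByExpr, quasi-likelihood, time and sex), with Benjamini-Hochberg adjustment over all genes tested. The script was tested on simulated data. DESeq2 1.42.0 was an alternative. Shares used exact permutation tests over libraries with at least 20 cells of code 2. Promoters are from RefSeq and gene positions from GENCODE M21.

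Genes named are the 20 highest and 10 lowest against other cells of code 2 at 50 CPM or more with 1 sign in every library, members of fixed lists with the smallest p or the highest level, and Fabp5. Genes of the library pattern and Il1b were chosen after their values were seen. The members and lists were chosen with earlier results of these data known. D1 and D10 shares were compared as planned, but the planned gene comparisons with D10 had too few cells. Some planned genes are not reported here.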

Additional observations from a re-analysis of the deposited data

Results flagged for a closer look

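Single libraries stood apart from the rest of their group, by Dixon's test at the 95% level, in 14 of 64 groups looked at. Chance flags about 1 in 20 groups of values fixed in advance, a rate that does not apply here, since some of the genes were chosen after their values were seen and several move together in the same libraries. Among the 5 D2 and D3 libraries the share of cluster 11 among cells of code 2 was 1.59% in D3_mixed 3 and 44.9% to 59.4% in the others. In D3_infiltrating 1 the CPM stood high for Rsad2 (1069, next 191), Ifit1 (499, next 94.2), Oasl1 (241, next 73.5), Phf11b (448, next 109), Ifit3 (1417, next 164) and Plac8 (822, next 190). In D2_infiltrating 1 it stood high for Hilpda (579, next 119), Cxcl3 (2838, next 72.6), Cxcl2 (1486, next 93.0), Ccl6 (7301, next 1069), Ccl9 (2362, next 351) and Ccl24 (259.9, next 20.6). In D3_mixed 3, the C1qb level of 2247 CPM was above the next of 893.

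Libraries outside the main comparisons, which entered only alternatives, also held cluster 11, above the 0 of 1887 cells in the laminectomy libraries. It made up 2.98% of all cells in D2_resident 1, 8.81% in D3_resident 1, 3.02% in D3_resident 2 and 27.5% in D3_conflict 1.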

How the results depend on the processing

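No time comparison of the shares passed an adjusted exact p under 0.05, except D10 against D1 (-35.1 percentage points) and against D2 and D3 (-38.1) with resident libraries added. The resident libraries may share mice with infiltrating ones, which the permutation takes as independent. The difference of D2 and D3 from D1 turned to -2.66 points with at least 50 cells of code 2 or without D1_mixed 1, and to -0.095 on the logit scale. Leaving out each library gave -2.66 to 16.0 points for that comparison, -43.3 to -24.7 for D10 against D1, -50.7 to -36.3 for D10 against D2 and D3, and 8.11 to 19.2 for infiltrating against mixed. Of the 20 leading genes, 19 stayed with 1 CPM added, 15 with 50 CPM added, and 8 with at least 50 cells on each side, and of the 10 lowest 6, 9 and 1 stayed.

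The count of genes called between D2 and D3 and D1, 0 with edgeR, was 47 with no expression filter, 2 with sort as a term and 61 with sequencing pool as a term. Leaving out 1 library gave 0 to 102 genes: 102 without D1_infiltrating 1, 82 without D2_infiltrating 1, 8 without D1_infiltrating 2, 8 without D2_mixed 2 and 0 without any of the others. Without either D1 library the D1 side is 1 library, assumed to vary like the other groups. With D2_infiltrating 1 taken as male, an alternative chosen after seeing the data, 1 gene was called, S100a9 (log2 change -8.24, edgeR adjusted p = 0.00013). The cause was not tested. A fit with the replicate number as a replicate block called 0 genes, and correlations between same-numbered libraries ran from -0.179 to 0.148, so the numbers were not taken to pair the samples. Infiltrating libraries alone, with D1, D2 and D3 as separate levels and sex as a term, left no residual degrees of freedom and mixed libraries alone held no D1 library, so neither was run. Infiltrating libraries alone without sex, chosen after seeing the data, gave 0 genes of 10511. The comparison rests on 2 D1 libraries, and D2_mixed 1 (31 cells) and D3_mixed 3 (48 cells) were the smallest.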
